A study of Mus musculus with 8 samples.

Results

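Described here are 10 genes that were near the floor of detection, or low, in cardiomyocyte nuclei of WT mouse hearts and at higher levels in those of Taz-KO hearts. They are Tenm4, Vmn2r3, Ptprt, Tfcp2l1, Mei4, Fam227b, Btbd16, Tex22, Trp63 and Cdsn, 10 of the 32272 genes of the deposited matrices that are not mitochondrial. They were chosen by name, with their Taz-KO and WT levels in cardiomyocytes known, so those levels are given as a description without a test. Single-nucleus RNA-seq measured nuclear RNA, unspliced transcripts included, in whole hearts of male mice of 9 weeks. The hearts were minced and cryopreserved before nuclei were prepared. The WT group consisted of replicates 4686, 4909, 5355 and 5356 and the Taz-KO group of replicates 4685, 4910, 5300 and 5301, with 1 library per mouse, so that the mouse was the replicate (n = 4 per genotype). The genotype label reads KO or WT, the labels name no treatment, and the strain is not given in the sources used here.

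Tafazzin is the X-linked acyltransferase that remodels cardiolipin, the phospholipid of the inner mitochondrial membrane, and its loss causes Barth syndrome, in which cardiomyopathy is a main feature. Cells with failing mitochondria can switch on the integrated stress response, in which phosphorylation of eIF2alpha favours translation of ATF4 and CHOP, factors that raise transcripts for amino acid synthesis and transport. The 10 genes have roles that lie mostly outside the heart muscle cell. Tenm4 encodes a teneurin, a large transmembrane adhesion protein of the nervous system, which was first described as a gene downstream of CHOP. Vmn2r3 encodes a vomeronasal receptor, Ptprt a receptor tyrosine phosphatase, and Tfcp2l1 a grainyhead-family transcription factor of kidney epithelium and embryonic stem cells. Mei4 acts in the formation of meiotic DNA double-strand breaks, Tex22 is a testis-expressed gene, Trp63 encodes the p53-family factor of stratified epithelia, and Cdsn encodes corneodesmosin, an adhesion protein of the epidermis.

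The promoters of Tenm4, which had the highest Taz-KO level, of Vmn2r3, which had the largest fold, and of Tfcp2l1, where a motif was matched, are shown, since the sequence around the annotated start is where motifs of stress-response factors would be looked for. They are RefSeq sequences of the build GRCm38.p6 from 250 bases before to 50 bases after a start, written 5′ to 3′ on the strand of the gene, with any match to a motif searched in capitals. The window of the first start of Tenm4 is chr7:96170994-96171293 on the plus strand and that of the second chr7:96211421-96211720 on the plus strand. The promoter of Vmn2r3 is chr3:64287368-64287667 on the minus strand and that of Tfcp2l1 chr1:118627695-118627994 on the plus strand.
Tenm4, first start: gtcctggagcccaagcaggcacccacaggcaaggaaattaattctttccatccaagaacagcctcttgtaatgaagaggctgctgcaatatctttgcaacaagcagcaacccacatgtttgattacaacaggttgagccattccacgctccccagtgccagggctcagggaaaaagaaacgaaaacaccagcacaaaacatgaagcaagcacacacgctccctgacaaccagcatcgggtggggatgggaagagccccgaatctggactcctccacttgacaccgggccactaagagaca
Tenm4, second start: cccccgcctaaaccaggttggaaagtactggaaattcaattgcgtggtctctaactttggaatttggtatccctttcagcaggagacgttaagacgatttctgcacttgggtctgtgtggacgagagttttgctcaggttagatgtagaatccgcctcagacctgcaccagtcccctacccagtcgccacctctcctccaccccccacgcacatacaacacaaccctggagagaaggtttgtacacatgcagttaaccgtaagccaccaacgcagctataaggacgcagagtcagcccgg
Vmn2r3: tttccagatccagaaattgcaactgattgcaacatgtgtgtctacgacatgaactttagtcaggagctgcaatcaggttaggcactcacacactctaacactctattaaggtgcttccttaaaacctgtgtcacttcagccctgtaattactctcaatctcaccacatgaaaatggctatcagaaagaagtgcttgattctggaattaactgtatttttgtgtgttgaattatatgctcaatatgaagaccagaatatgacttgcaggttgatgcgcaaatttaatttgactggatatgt
Tfcp2l1: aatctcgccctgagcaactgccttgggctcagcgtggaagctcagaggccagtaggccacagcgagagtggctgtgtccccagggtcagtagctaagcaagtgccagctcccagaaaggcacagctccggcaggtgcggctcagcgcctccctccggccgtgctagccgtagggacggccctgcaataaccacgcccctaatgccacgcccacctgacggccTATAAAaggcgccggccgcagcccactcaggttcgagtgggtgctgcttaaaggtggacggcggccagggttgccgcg
Promoters were found for 8 of the 10 genes, 11 promoters in all. On both strands, none of the 11 held TGATGNAA, the core of the C/EBP-ATF response element, of which TGATGCAA is 1 form. TGATGNAA was held by 3.969% and TGATGCAA by 0.8949% of the 32851 promoters of the table. The cyclic AMP response element TGACGTCA (1.79% of all promoters) and the endoplasmic reticulum stress element ERSE (0.1187%) were also without a match. TATAAA, in 13.62% of all promoters, was found once, in Tfcp2l1. The absence of a match says only that these letters are not in these windows.

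In GRCm38 with the GENCODE annotation vM21, Tenm4 spans chromosome 7 from 96171246 to 96911093 on the plus strand, and 2.84% of this span is exonic. Ptprt lies on chromosome 2 from 161521990 to 162661147 on the minus strand, and Fam227b on the same chromosome and strand from 125983483 to 126152004. Vmn2r3 is on chromosome 3 from 64257215 to 64289709 on the minus strand. Plus-strand genes are Tfcp2l1 on chromosome 1 from 118627945 to 118685168, Mei4 on chromosome 9 from 81863670 to 82206007, and Btbd16 on chromosome 7 from 130774069 to 130825899. Tex22 on chromosome 12 from 113074502 to 113088917, Trp63 on chromosome 16 from 25683763 to 25892102 and Cdsn on chromosome 17 from 35552128 to 35557180 are also on the plus strand. The 10 genes thus lie on 8 autosomes, with pairs on chromosomes 2 and 7 that are not neighbours.

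The libraries held 20025456 to 348080773 UMIs, and Taz-KO replicates 4685 and 5301 stood apart with 3492 and 5571 barcodes against 21190 or more in the other 6. Mitochondrial UMIs made up 1.57 to 23.7% of a library, and any pair of libraries shared at most 294 cell barcodes. In the 6 larger libraries every barcode passed the limits of 800 UMIs and 250 genes, and doublet removal reached its limit of 10%. The paper, which also corrected for ambient RNA, kept fewer nuclei than the 151264 kept here. Of these nuclei, in 38 clusters, 25922 were in clusters named from a list of cardiomyocyte markers that includes Ryr2 and Ttn, with 589 to 5965 per mouse. Another 5 clusters, of 2729 WT and 4057 Taz-KO nuclei (1.12 to 7.12% of the nuclei of a mouse), scored highest for cardiomyocyte markers too but stayed unnamed by a limit on markers of a second cell type, set after the data were seen. There Tenm4 was at 1.86 to 4.52 CPM in WT and 996 to 1464 CPM in Taz-KO, and Btbd16 and Cdsn overlapped between genotypes. Of the cardiomyocyte nuclei, 422 of 589 in Taz-KO replicate 4685 and 317 of 841 in 5301 were in atrial-like clusters, and the median UMIs per cardiomyocyte nucleus were 2866 in 4685 against 6609 to 12248 in the other mice. Taz itself was at 49.1 to 54.4 CPM (UMIs of the summed cardiomyocytes scaled to 1000000 per mouse, mitochondrial genes left out) in WT and at 28.1 to 38.2 CPM in Taz-KO. The groups did not overlap, and the fold change was -0.74 on the log2 scale with an adjusted p of 0.0190 (edgeR quasi-likelihood test), which became 0.0513 without WT replicate 4686. Which part of Taz is deleted is not given in the sources used here, so that this level checks the labels only in part.

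The cardiomyocyte values of Taz-KO replicate 4685 rest mostly on 128 nuclei that form a ventricular-like cluster of that mouse alone, with a median of 24768.5 UMIs against 2732 in its other 461 cardiomyocyte nuclei. These nuclei hold 71.8% of the cardiomyocyte UMIs of 4685. Vmn2r3, Fam227b and Tenm4 are among the genes that lead the cluster against all other nuclei of both genotypes. The cluster holds 0 WT nuclei, so genes chosen as high in Taz-KO cardiomyocytes would be prone to lead it, and this is no separate result. In the other 461 nuclei, of which 422 are atrial-like, Tenm4 was at 311 CPM (1893 in the 128 nuclei), Vmn2r3 at 121, Tex22 at 67.6, Fam227b at 58.1, Btbd16 at 30.1, Ptprt at 23.5, Tfcp2l1 at 22.0, Mei4 at 6.61 and Cdsn at 7.35 CPM. Each of these was still above the highest WT mouse. Trp63 at 11.8 CPM then lay within the WT range. Ttn was at 6949 CPM in these nuclei against 17796 CPM in the cluster, and its part in the lower values was not tested. The values of 4685 below are those of all its cardiomyocyte nuclei, and those of the other 3 Taz-KO mice stand beside them.

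Read against its label, the set was not silent throughout in WT cardiomyocytes. Vmn2r3, Tfcp2l1, Mei4 and Cdsn had a WT mean below 1 CPM, as did 17369 of the 32272 genes. Tenm4, Ptprt and Fam227b lay between 3.34 and 5.60 CPM. Btbd16, Tex22 and Trp63 were at 12.7 to 17.3 CPM in WT, with 2091 to 3012 UMIs over the 4 mice, and are better described as low than as silent. In each of the 10 genes, the lowest Taz-KO mouse lay above the highest WT mouse, as in 14.1% of the 18214 genes tested in cardiomyocytes, an ordering for which the genes had been chosen and which Trp63 keeps only with the cluster of 4685.

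Tenm4 was at 2.64, 4.24, 4.32 and 2.64 CPM in WT replicates 4686, 4909, 5355 and 5356. In Taz-KO replicates 4685, 4910, 5300 and 5301 it was at 1448, 1580, 1139 and 1681 CPM. All 4 Taz-KO mice were far above all WT mice, with means of 1462 ± 236 against 3.46 ± 0.949 CPM (SD, n = 4), a ratio of 422. Over the mice this was 610 UMIs in WT and 179882 in Taz-KO, the most of the 10 genes in Taz-KO. It ranked 8 of all genes tested by log2 fold change.

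Vmn2r3, the vomeronasal receptor, had 41 UMIs over all WT cardiomyocytes and 24310 over those of Taz-KO. Its WT levels were 0.110, 0.181, 0.601 and 0.126 CPM and its Taz-KO levels were 311, 190, 188 and 269 CPM in the order of mice given for Tenm4. The means of 0.255 ± 0.233 and 239 ± 60.6 CPM gave a ratio of 940 and rank 5 by log2 fold change, the highest of the 10. The other genes of the receptor family were at low levels in both genotypes. The 123 other Vmn2r genes of the matrices reached at most 3.81 CPM as a Taz-KO mean, in a gene whose WT mean was 3.88 CPM, and of the 9 that were tested 0 were called by edgeR, 0 by DESeq2 and 0 at an unadjusted p of 0.05. With 6.93% higher over all genes tested, 0 of 9 is no result about the family.

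Ptprt, the phosphatase, was at 1.76 to 5.04 CPM in WT and at 166, 250, 177 and 264 CPM in Taz-KO replicates 4685, 4910, 5300 and 5301, a ratio of means of 64.2. Tfcp2l1 varied least among Taz-KO mice, with 43.9, 39.4, 48.7 and 47.0 CPM against 0.601 to 1.21 CPM in WT (ratio 56.4). Mei4, the meiotic factor, was at 0.315 to 0.544 CPM in WT and at 41.2, 55.1, 36.1 and 56.7 CPM in Taz-KO (ratio 109). In these 3 genes the lowest Taz-KO mouse was more than 10 times the highest WT mouse. Fam227b had the same kind of gap, with 8.59, 6.58, 4.12 and 3.12 CPM in WT and 291, 248, 136 and 186 CPM in Taz-KO (ratio 38.4).

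The genes with a WT level above 10 CPM had the smaller folds. Btbd16 was at 25.1, 13.3, 19.2 and 11.7 CPM in WT and at 72.4, 128, 167 and 100.4 CPM in Taz-KO, with means of 17.3 ± 6.11 and 117 ± 40.1 CPM (ratio 6.74). Tex22, the testis-expressed gene, was split in WT, with 20.7 and 21.6 CPM in replicates 4686 and 5355 and 4.10 and 4.23 CPM in 4909 and 5356. Its Taz-KO levels of 131, 97.9, 209 and 135 CPM lay above all 4 (ratio 11.3). Trp63 was at 11.7 to 22.3 CPM in WT and at 89.0, 100.5, 36.0 and 70.6 CPM in Taz-KO (ratio of means 4.45). Its Taz-KO replicate 5300 was the closest of any Taz-KO mouse to the highest WT mouse over the 10 genes.

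Cdsn differed from the others in its low level. It had 12 UMIs in WT and 316 in Taz-KO cardiomyocytes, with 0.0879, 0.109, 0 and 0.0503 CPM in WT and 3.10, 2.17, 4.24 and 0.492 CPM in Taz-KO. Replicate 5301 was well below the other 3 Taz-KO mice, and the ratio of means of 40.5 rests on few molecules.

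**Figure D1:**
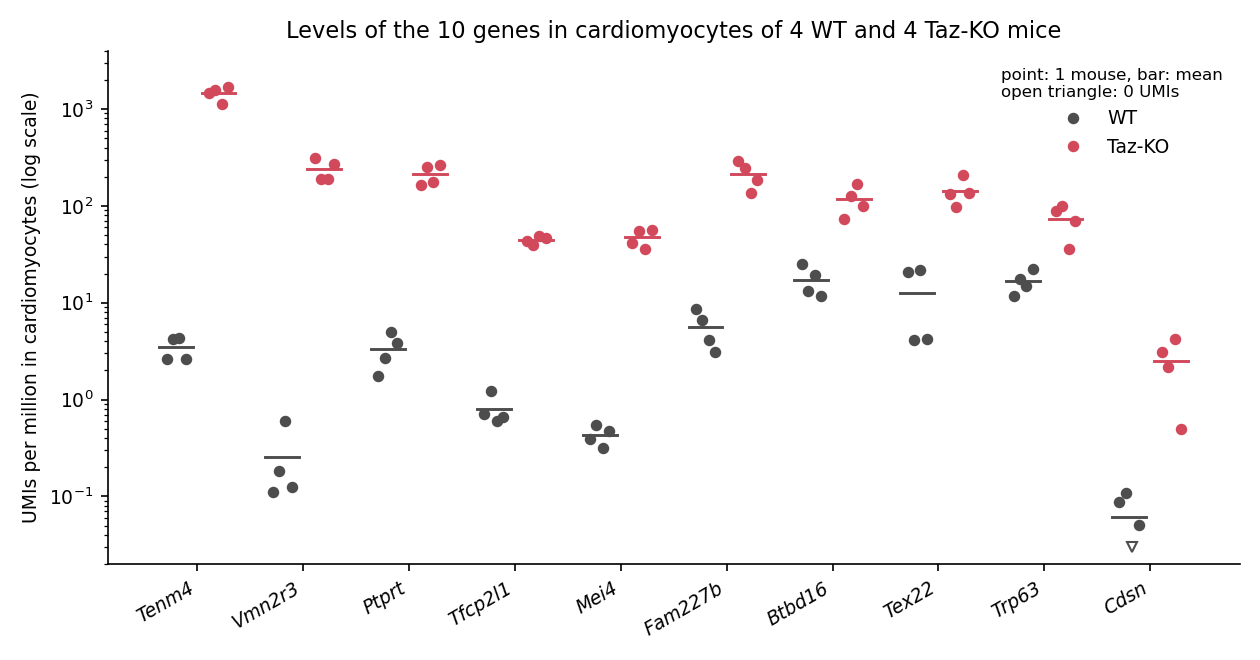
Levels of the 10 genes in summed cardiomyocyte nuclei, in CPM on a log axis, with 1 point per mouse for WT and Taz-KO. Each Taz-KO mouse lies above each WT mouse in all 10 genes, with the widest gap for Vmn2r3 (means of 0.255 and 239 CPM) and the narrowest for Trp63 (16.6 and 74.0 CPM).

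For Tenm4, both the share of nuclei with a UMI and the UMIs in each such nucleus were higher in Taz-KO. It had a UMI in 1.79 to 4.41% of WT cardiomyocyte nuclei and in 52.1, 93.3, 87.9 and 78.7% of those of Taz-KO replicates 4685, 4910, 5300 and 5301. A nucleus with a Tenm4 UMI held on average 1.19 to 1.72 of them in WT and 9.54 to 22.8 in Taz-KO, with up to 242 in 1 nucleus. The UMIs per nucleus with a UMI overlapped between genotypes for Tex22 (1.68 to 4.24 in WT and 3.95 to 6.02 in Taz-KO) and Vmn2r3 (1.00 to 2.63 and 2.34 to 6.23), and for Cdsn they were at most 1.07 in Taz-KO. The Tenm4 share was lowest in 4685, the mouse with the lowest depth per nucleus. With every nucleus thinned to 1000 UMIs, the Tenm4 share was 0.238 ± 0.0826% in WT and 51.2 ± 13.9% in Taz-KO (SD, n = 4). Replicate 4685 was again the lowest at 31.1%, against 54.4 to 63.0% in the other Taz-KO mice. In 4685, 3 nuclei, and in 5301, 114 nuclei were left out of the thinned share for having fewer UMIs.

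After the same thinning, Vmn2r3 was found in 15.9 ± 2.13% of Taz-KO nuclei, Fam227b in 12.1%, Ptprt in 11.9% and Tex22 in 8.75%. In WT, Fam227b was found in 0.433%, Ptprt in 0.409% and Tex22 in 0.792% of nuclei. The remaining shares were lower, with Btbd16 at 4.54% in Taz-KO against 0.862% in WT and Trp63 at 4.29% against 1.36%. Tfcp2l1 was at 3.70% against 0.0554%, Mei4 at 3.21% against 0.0390%, and Cdsn at 0.341% against 0.0134%.

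Btbd16 was unevenly spread over nuclei, a trait that other genes of the set shared. In WT it had a UMI in only 4.32 to 5.37% of cardiomyocyte nuclei, yet these held 3.09 to 6.39 UMIs each, and the 1% of nuclei richest in Btbd16 held 71.2 to 75.5% of all its UMIs. In Taz-KO it had a UMI in 8.66 to 15.3% of nuclei with 6.86 to 11.6 UMIs each. There the richest 1% held 79.4% in replicate 4685 and 38.1 to 47.7% in the other Taz-KO mice. In WT the richest 1% held 38.9 to 74.3% for Tenm4 and 60.7 to 69.0% for Tex22, but 36.9 to 44.4% for Fam227b and 23.4 to 30.9% for Trp63. For Vmn2r3, Mei4 and Cdsn, with a UMI in fewer than 1% of WT nuclei, it held 100% wherever there was a UMI. In Taz-KO it held 5.81 to 15.1% for Tenm4, 23.2 to 48.8% for Trp63 and 35.5 to 100% for Cdsn. Beside these shares, which are without thinning, Tenm4 had a UMI in 36.3 ± 11.8% of Taz-KO fibroblast nuclei (SD, n = 4), and at 1000 UMIs in 11 ± 3.32%, against 0.905% in WT fibroblasts. Btbd16 had a UMI in 0.908% of Taz-KO fibroblast nuclei at 1000 UMIs.

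Single nuclei often held more than 1 of the 10 transcripts. At 1000 UMIs per nucleus, at least 1 of the genes was found in 3.30 to 4.88% of WT nuclei and in 49.0, 77.2, 74.0 and 75.1% of nuclei of Taz-KO replicates 4685, 4910, 5300 and 5301. At least 2 were found in 0.0554 to 0.15% of WT nuclei and in 18.6, 38.4, 35.3 and 37.0% of Taz-KO nuclei. The mean number per nucleus was 0.0335 to 0.0493 in WT and 0.729 to 1.35 in Taz-KO. Without thinning, the mean was 2.09 to 4.16 in Taz-KO, and 1 nucleus of replicate 4910 held all 10.

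Within ventricular-like Taz-KO nuclei at the same 1000 UMIs, nuclei with a Tenm4 UMI more often held the other transcripts. In 4685 these are mostly nuclei of its own cluster. Vmn2r3 was found in 22.8% of nuclei with a Tenm4 UMI and in 13.5% of those without, and the first share was the higher in 4 of 4 mice. Fam227b was at 18.2 against 12.0% and Trp63 at 6.95 against 2.72%, each higher in 4 of 4 mice. Tfcp2l1, Mei4 and Tex22 were also higher in all 4 mice, and Ptprt, Btbd16 and Cdsn in 3 of 4. Beside a UMI of the integrated stress response list, Tenm4 was found in 62.2% of nuclei against 54.8% without, Vmn2r3 in 18 against 15.3% and Tex22 in 10.8 against 7.26%, in each of 3 mice with enough nuclei. Btbd16 gave 5.80% with and 6.24% without such a UMI. These shares are descriptions, since nuclei of 1 mouse are not replicates.

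**Figure D2:**
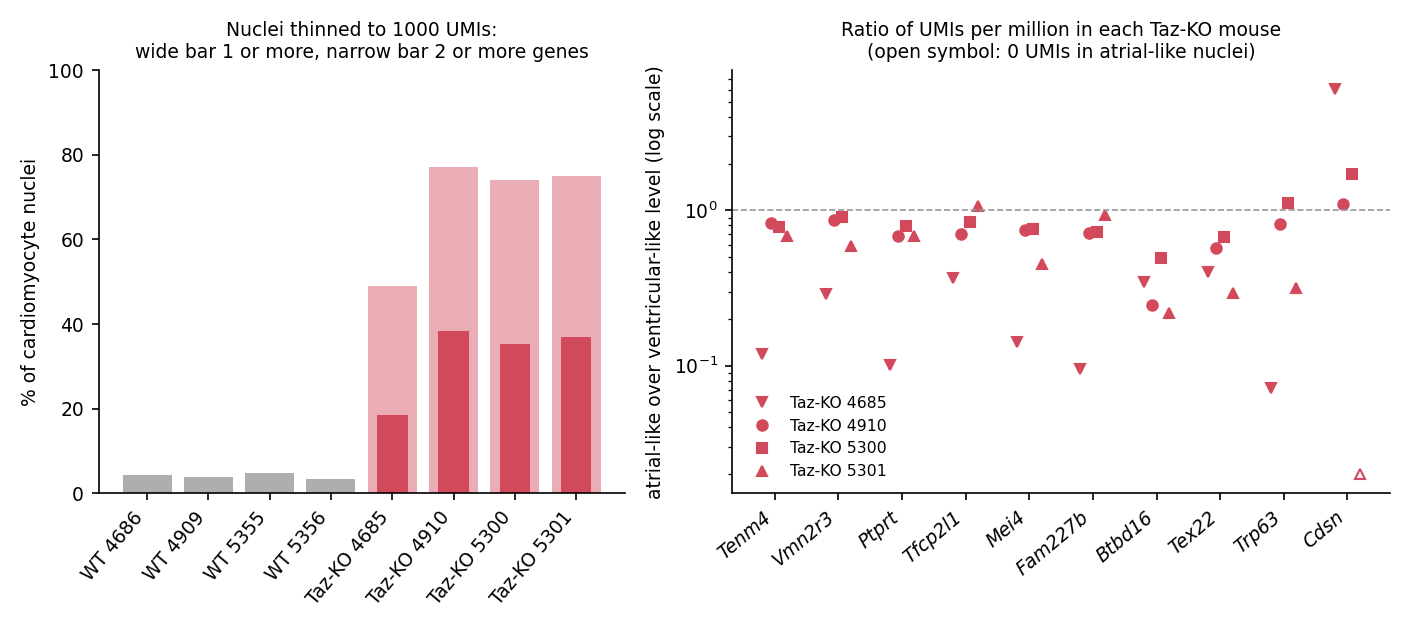
Left, percent of cardiomyocyte nuclei of each mouse with a UMI of at least 1 (wide bars) and at least 2 (narrow bars) of the 10 genes, each nucleus thinned to 1000 UMIs. Right, CPM in atrial-like over CPM in ventricular-like nuclei of each Taz-KO mouse on a log axis, where most points lie below 1 and those of replicate 4685 are the lowest for most genes (Tenm4, 0.119).

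Atrial-like nuclei of Taz-KO hearts had lower levels than ventricular-like ones for most of the set. Tenm4 was at 221 against 1856 CPM in replicate 4685, 1323 against 1604 in 4910, 915 against 1164 in 5300 and 1170 against 1721 in 5301. The difference was thus largest in 4685, where 128 of the 167 ventricular-like nuclei are the cluster described above and in which Ttn, the cardiomyocyte reference, had an atrial-like over ventricular-like ratio of 0.348 against 0.723 to 0.925 in the other mice. Btbd16 (ratios of 0.219 to 0.496), Tex22 (0.293 to 0.671), Vmn2r3 (0.290 to 0.909), Ptprt (0.101 to 0.788), Mei4 (0.142 to 0.757) and Fam227b (0.0948 to 0.940) were below 1 in all 4 mice. Tfcp2l1 and Trp63 were below 1 in 3 of 4 mice. Cdsn went the other way in most, with ratios of 0 to 6.01 and only 1 of 4 mice below 1. Ryr2 was also lower in atrial-like nuclei of each Taz-KO mouse. It was at 2068 against 11655 CPM in 4685 and 8526 against 9977 CPM in 4910. In 5300 it was at 7394 against 9275 CPM and in 5301 at 9352 against 12391 CPM. The part of the lower Ttn and Ryr2 in these ratios was not tested. In WT the order for Tenm4 was the other way, with atrial-like nuclei at 8.22, 11.6, 10.2 and 2.99 CPM against 2.22, 3.59, 3.66 and 2.62 CPM in ventricular-like nuclei of replicates 4686, 4909, 5355 and 5356. The Tenm4 value of atrial-like nuclei in 5356 rests on 8 UMIs. The Mei4 ratio was above 1 in all 4 WT mice (1.26 to 2.59), but on only 2, 3, 2 and 3 atrial-like UMIs. No order is read from it. Btbd16 (0.173 to 0.986) and Trp63 (0.494 to 0.661) were below 1 in all 4 WT mice.

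Outside cardiomyocytes, the 10 genes were fitted in 9 other marker-typed classes, in separate edgeR quasi-likelihood tests of sums per mouse. Of 90 combinations of gene and class, 58 had enough counts to be tested, and 43 were higher in Taz-KO and 0 lower at an adjusted p of 0.05. By DESeq2, 46 were higher and 0 lower, and 0 were lower at an unadjusted edgeR p of 0.05. In endothelial nuclei 8 of 10 tested genes were called higher, against 0.314% of all genes tested, in fibroblasts 7 of 9 (0.238%), in macrophages 7 of 9 (0.176%) and in pericytes 6 of 6 (0.125%). In lymphocytes it was 8 of 8 (2.03%), in mesothelial nuclei 3 of 7 (0.0327%), in lymphatic endothelial nuclei 2 of 4 (0.0547%), in adipocytes 2 of 4 (0.578%) and in dendritic nuclei 0 of 1 (0% in each direction by edgeR and DESeq2, with Tenm4 higher at an unadjusted p of 0.05). Lower in Taz-KO were 0.0794% of all genes tested in fibroblasts, 0.0878% in endothelial nuclei, 0.0774% in macrophages, 0.0391% in pericytes, 0.00818% in mesothelial nuclei, 0.0273% in lymphatic endothelial nuclei, 1.18% in adipocytes and 2.46% in lymphocytes. These sums come from the same 8 mice as the cardiomyocytes in which the genes were chosen, and several passed the count filter through Taz-KO alone, as Vmn2r3 in every class in which it was tested and Cdsn in endothelial nuclei. The counts are therefore a description and no independent support. Of the 43 calls, 7 are of Vmn2r3 and 1 of Cdsn, and these are not all that passed through Taz-KO alone. In pericytes so did Tfcp2l1, Btbd16 and Tex22, with at most 1.02, 2.38 and 2.72 CPM in a WT mouse. In lymphocytes so did the same genes, with at most 1.87, 2.53 and 2.69 CPM. By gene, 7 of 8 tests were called for Tex22, 6 of 9 for Tenm4, 6 of 7 for Fam227b and 1 of 6 for Trp63. Without Taz-KO replicate 4910, and likewise without 5300, 23 of the 43 calls held, against 27 without WT replicate 4686 and 28 without WT replicate 4909.

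In fibroblasts, Tenm4 was at 11.3, 10.3, 7.23 and 10.3 CPM in WT and at 92.5, 149, 151 and 114 CPM in Taz-KO, with no overlap. The log2 fold change was 3.62 ± 0.23 (SE) with an adjusted p of 0.000177 (edgeR). All 4 Taz-KO fibroblast sums lay below every Taz-KO cardiomyocyte sum (1139 to 1681 CPM). In lymphocytes Tenm4 reached 419 to 601 CPM in Taz-KO against 5.56 to 12.2 CPM in WT (log2 fold change 5.80, adjusted p of 1.36e-08 by edgeR). Tenm4 was chosen on the cardiomyocytes of these same mice, whose transcripts are also present in both classes, as given below. Both p-values are therefore a description and no independent support. Fibroblast Vmn2r3 was at 0.174 ± 0.0404 CPM in WT and 42.9 ± 18.7 CPM in Taz-KO, without overlap.

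Adipocyte, mesothelial and dendritic nuclei of WT hearts held Tenm4 UMIs at higher levels than WT cardiomyocytes, and where these transcripts were made was not tested. WT adipocytes were at 352, 376, 261 and 912 CPM and Taz-KO adipocytes at 190, 1092, 891 and 1119 CPM, where the lowest value rests on 17 nuclei and 15 UMIs. These groups overlapped, with a log2 fold change of 0.79 ± 0.53 (SE) and an adjusted p of 0.454 (edgeR). Mesothelial Tenm4 was at 20.3 to 93.2 CPM in WT and 46.3 to 139 CPM in Taz-KO, with an adjusted p of 0.934 by edgeR. Dendritic Tenm4 was at 35.4 to 141 CPM in WT and 127 to 191 CPM in 3 Taz-KO mice, on 140 and 241 UMIs and without replicate 4685, which had 4 dendritic nuclei, with an adjusted p of 0.846 by edgeR. Mesothelial Ptprt was at 25.9 to 49.7 CPM in WT and 52.6 to 71.8 CPM in Taz-KO, without overlap, with an adjusted p of 0.934 by edgeR. Mesothelial Tfcp2l1 was at 23.6 ± 4.74 CPM in WT and 30.1 ± 2.61 CPM in Taz-KO (SD, n = 4), with overlap and an adjusted p of 0.985 by edgeR. These 3 genes were thus low in WT cardiomyocytes but not in every class of nuclei of the WT heart.

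**Figure D3:**
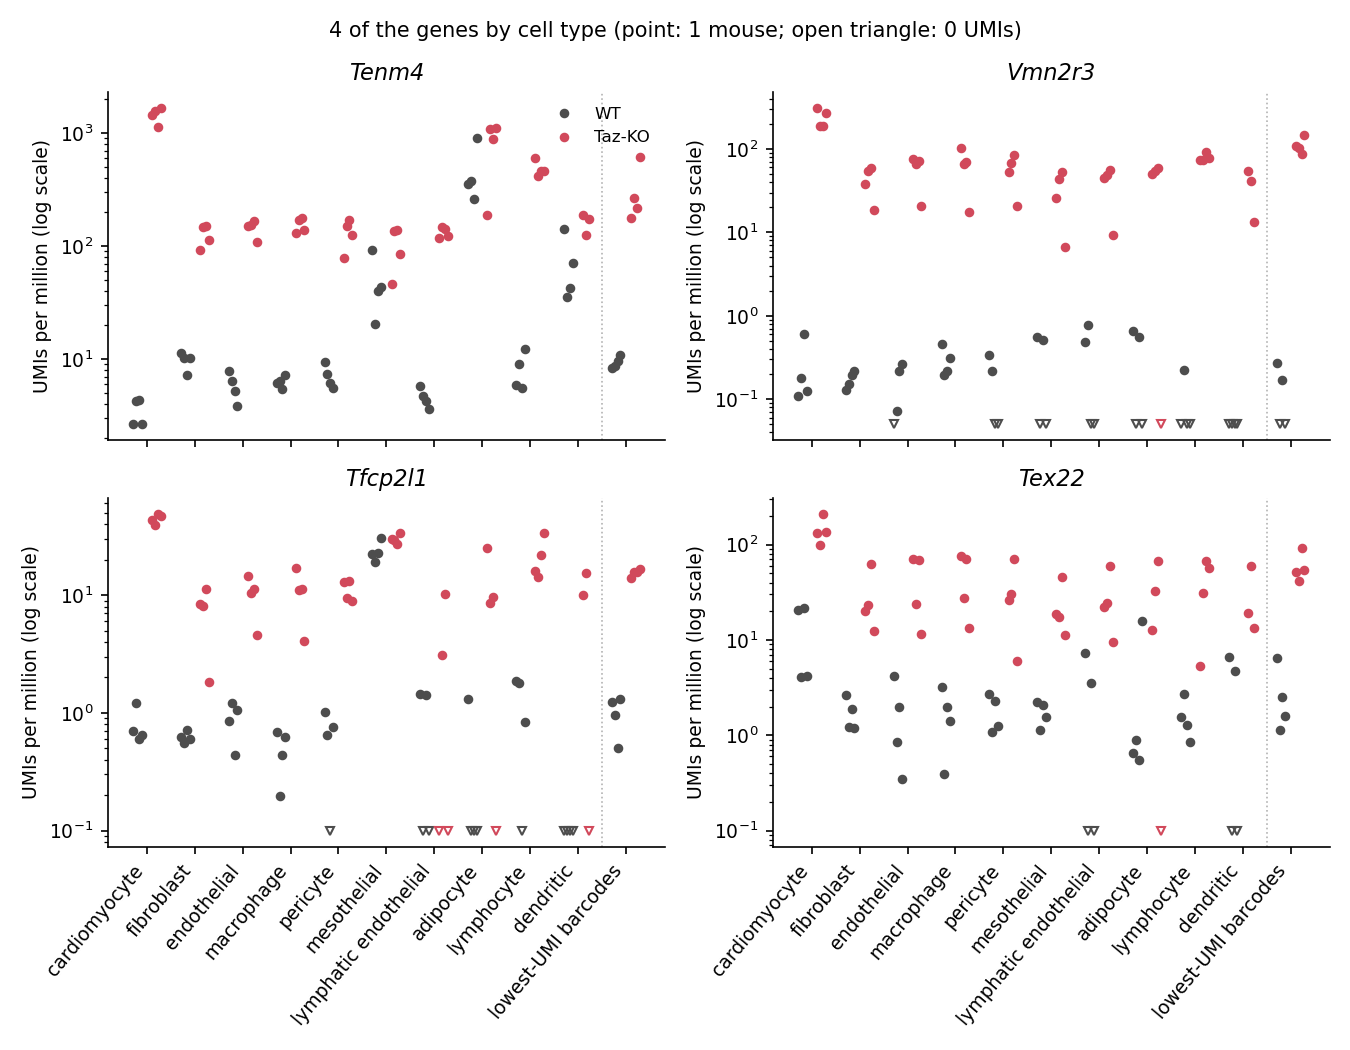
Levels of Tenm4, Vmn2r3, Tfcp2l1 and Tex22 by cell type and in the lowest-UMI decile of barcodes (right of the dotted line), in CPM on a log axis, with 1 point per mouse with at least 10 nuclei and open triangles for 0 UMIs. Outside cardiomyocytes, the genotypes do not overlap in 6 of 9 classes for Tenm4 and 5 of 9 for Tfcp2l1, and in 8 of 9 each for Vmn2r3 and Tex22. The share of all genes without overlap in these classes is not given here, so these counts are a description only.

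Transcripts of cardiomyocytes were also present in the other classes. Ttn, the giant sarcomere protein that defines cardiomyocytes, was in Taz-KO fibroblasts at 5.15 to 18.7% of its level in the cardiomyocytes of the same mouse, in endothelial nuclei at 5.87 to 22.2% and in lymphocytes at 23.2 to 45.9%. In the decile of barcodes with the fewest UMIs it was at 27.1 to 32.8%. For each gene, the UMIs that would come along with these Ttn UMIs at the ratio of the same mouse's cardiomyocytes were therefore set beside the UMIs counted. Fibroblasts of the 4 Taz-KO mice held 6991 Tenm4 UMIs, and 11630.8 would have come along with their Ttn. The ratio of counted to carried UMIs for Tenm4 was thus 0.601 in fibroblasts, 0.53 in endothelial nuclei and 0.577 in the lowest-UMI decile, with single mice between 0.525 and 1.32 in fibroblasts. With Ryr2 in place of Ttn, the fibroblast ratio was 0.869 and that of the lowest-UMI decile 0.811.

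The ratios of the other genes are given beside those of the lowest-UMI decile, which holds some of the same nuclei (up to 1638 of its barcodes in a mouse were in named clusters), so that the ratios are not independent. For Ptprt it was 0.55 to 0.62 in fibroblast, endothelial, macrophage and pericyte nuclei against 0.594 in the lowest-UMI decile. For Mei4 it was 0.67 to 0.74 against 0.676, and for Btbd16 0.50 to 0.57 against 0.572. All these ratios sum UMIs over mice, and most fibroblast Ttn UMIs were of replicates 4910 (107391) and 5300 (74021). Replicates 4685 and 5301 held 2927 and 3334. Single mice lay on both sides of 1 for Ptprt and Mei4 in fibroblasts and for Btbd16 in macrophages. The same held for Ptprt in the decile and for Tenm4 and Btbd16 in adipocytes. The closeness of the sums is thus not a closeness in each mouse. Vmn2r3 and Tex22 were above 1, but likewise in the lowest-UMI decile, with 1.62 in fibroblasts against 1.63 for Vmn2r3 and 1.43 to 1.5 against 1.46 for Tex22. Higher ratios than in the lowest-UMI barcodes were found for Tenm4 in adipocytes (2.94), and in mesothelial nuclei for Tfcp2l1 (4.55 against 1.19) and Ptprt (1.80 against 0.594), genes that the WT nuclei of these classes held too. Trp63 was at 1.97 in mesothelial nuclei and 1.80 in adipocytes against 0.824, and Btbd16 at 0.965 in adipocytes against 0.572. In dendritic nuclei, with 0 UMIs in WT, Cdsn was at 18.3 and Tfcp2l1 at 1.64, on 12 and 16 UMIs over 3 mice, of which 1 was at 0 in each. In lymphocytes the ratio was lower for Vmn2r3 (1.11) and Tex22 (0.801) and higher for Tenm4 (0.846) than in the decile. Fam227b was at 1.11 in fibroblasts, which held 14.8 ± 3.77 CPM in WT, and at 0.66 in endothelial nuclei. With Ryr2 the fibroblast ratios were 1.62 for Fam227b, 1.07 for Mei4 (0.740 with Ttn) and 1.34 for Trp63 (0.909 with Ttn), so that the reference decides on which side of 1 the last 2 lie. Transcripts carried over from cardiomyocytes and transcripts made in the other nuclei were not told apart by these counts.

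Cdsn was at higher levels in endothelial nuclei than in cardiomyocytes of Taz-KO hearts. In endothelial nuclei it had 0 UMIs in all 4 WT mice and 10.9, 5.43, 6.59 and 4.59 CPM in Taz-KO replicates 4685, 4910, 5300 and 5301. This was at least 103-fold higher, taking 3 counts over the WT group as the floor. The gene passed the count filter only through Taz-KO, so that no p is given, although its call is 1 of the 43 above. In each Taz-KO mouse the endothelial level lay above the cardiomyocyte level of that mouse, which ran from 0.492 to 4.24 CPM. The ratio of counted UMIs to those carried with Ttn was 9.53 to 10.6 in fibroblast, endothelial, macrophage and pericyte nuclei, and 10.6 in the lowest-UMI decile of barcodes.

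The lowest-UMI decile of barcodes itself showed the genotype difference. Tenm4 there was at 8.31, 8.71, 9.59 and 10.8 CPM in WT and at 178, 269, 217 and 615 CPM in Taz-KO, with Vmn2r3 at 0 to 0.272 CPM in WT and at 107, 101, 87.7 and 148 CPM in Taz-KO. Replicate 5301 had the highest values of both, and its 557 lowest-UMI barcodes hold 0 of the nuclei kept, while those of other mice were mostly among the nuclei kept, with 37 to 94 per mouse in cardiomyocyte clusters. Tex22 was at 1.13 to 6.40 CPM in WT against 41.0 to 92.8 CPM in Taz-KO, and Tfcp2l1 at 0.505 to 1.31 against 13.9 to 16.8 CPM. In WT, Tenm4 was higher in these barcodes and in fibroblasts (7.23 to 11.3 CPM) than in cardiomyocytes (2.64 to 4.32 CPM), the reverse of the order in Taz-KO.

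**Figure D4:**
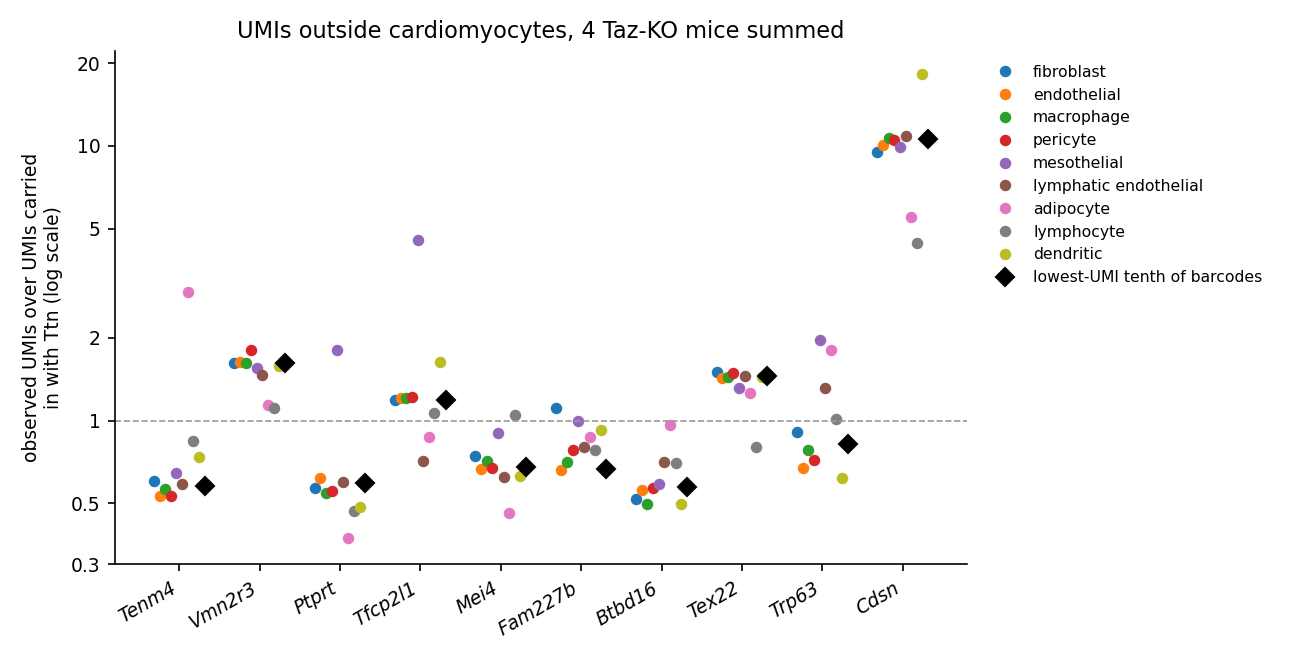
UMIs of each of the 10 genes counted in a cell type of the 4 Taz-KO mice, divided by the UMIs that would accompany the Ttn UMIs of that cell type at the ratio of the same mouse's cardiomyocytes, on a log axis, with the lowest-UMI decile of barcodes as black diamonds. The diamond shares nuclei with the classes beside it, and mesothelial Tfcp2l1 (4.55 against 1.19) and adipocyte Tenm4 (2.94 against 0.577) lie above it.

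Genes that overlap the 10 on the chromosome were looked at next. Of 10 such genes, 7 were tested in cardiomyocytes and 5 were higher and 0 lower at an adjusted p of 0.05 (edgeR), against 6.93% higher and 5.59% lower among all genes tested, with a median log2 fold change of 4.19 against 0.03 for all genes. DESeq2 gave the same 5 and 0, and 0 were lower at an unadjusted p of 0.05. Gm15414, an antisense gene inside Tenm4, rose from 0.0432 ± 0.0278 to 64.8 ± 30.9 CPM, but 7 UMIs make up its whole WT level. Gm15414 passed the count filter only through Taz-KO, so that no p is given, although its call is among the 5. The count of 5 in 7 is therefore a description. Fgf7, a fibroblast growth factor gene that lies within Fam227b on the other strand, was at 2.37 to 4.95 CPM in WT and at 53.5 to 110 CPM in Taz-KO, with a change of 4.19 ± 0.29 (SE) on the log2 scale and an adjusted p of 1.78e-05 (edgeR). Galk2, which overlaps Fam227b, went from 16.3 to 22.8 CPM (adjusted p of 0.306 by edgeR) and Fgfr2, which overlaps Btbd16, from 794 to 1505 CPM (adjusted p of 0.202 by edgeR). Whether the counting used the strand is not given in the sources used here, and reads of overlapping genes may be shared, so that levels within these pairs are uncertain.

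The nearest genes that do not overlap are given beside these. Of 20 neighbours, 9 were tested and 2 were called higher and 0 lower by edgeR and by DESeq2, beside 6.93% higher and 5.59% lower over all genes tested, with 1 lower at an unadjusted edgeR p of 0.05. Their median log2 fold change was 0.20, beside 0.03 over all genes tested. Dtwd1, whose start lies 137 bases from that of Fam227b on the other strand, rose from 9.67 ± 1.81 to 22.8 ± 5.80 CPM (log2 fold change 1.09, adjusted p of 0.0048 by edgeR). Gm4524, 64373 bases from Trp63, rose from 0.231 to 0.828 CPM. Its WT levels alone would not have passed the count filter, so that no p is given, although its call is 1 of the 2. Pacs2, 101 bases from Tex22, was at 44.9 CPM in WT and 41.9 CPM in Taz-KO (adjusted p of 0.463 by edgeR), and Nars2 beside Tenm4 at 54.7 and 68.1 CPM (adjusted p of 0.609 by edgeR). The difference between overlapping and next genes was not tested.

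Relatives of the genes by sequence were also counted. Of 137 paralogs, 22 were tested and 0 were higher and 3 lower in Taz-KO at an adjusted p of 0.05 (edgeR), with a median log2 fold change of 0.11. With 6.93% higher and 5.59% lower over all genes tested, a count of 0 in 22 is no result about the paralogs. By DESeq2, 1 was higher and 4 were lower, and at an unadjusted edgeR p of 0.05, 2 were higher. Grhl2, a grainyhead factor of epithelia and a relative of Tfcp2l1, fell from 12.3 ± 5.43 to 3.13 ± 0.803 CPM (log2 fold change -2.12, adjusted p of 0.00663 by edgeR). Ptpru, a relative of Ptprt, fell from 3.45 to 1.32 CPM (adjusted p of 0.0105 by edgeR). Grhl1 was called at an adjusted p of 0.0472 by edgeR, a call that was lost on leaving out any mouse other than Taz-KO 5301.

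The integrated stress response list, named here because Tenm4 was first described downstream of CHOP, had 35 of 37 genes tested in cardiomyocytes, of which 26 were higher and 0 lower (edgeR adjusted p of 0.05), beside 6.93% higher and 5.59% lower over all genes tested, with a median log2 fold change of 2.07. At an unadjusted p of 0.05, 1 was lower, as was 1 by DESeq2. Several of its genes started from levels as low as those of the 10. Asns, the asparagine synthetase, rose from 0.678 to 41.8 CPM, Gdf15, a stress hormone, from 0.733 to 42.0 CPM, and Trib3, a pseudokinase of the response, from 1.54 to 85.2 CPM, with adjusted p of 3.48e-05, 5.94e-05 and 3.49e-06 by edgeR. Slc7a5, an amino acid transporter, rose from 1.13 to 44.7 CPM (adjusted p of 4.07e-06 by edgeR). Adm2 had 0 UMIs in WT and 3.20 to 4.55 CPM in Taz-KO, at least 227-fold higher. Adm2 and Fgf21, the latter with 3 UMIs in WT, passed the count filter only through Taz-KO, and their calls are among the 26. This list was chosen with earlier results of the same mice known, so its count is no independent evidence of a direction.

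Mei4, Tex22, Trp63 and Cdsn are known from the germ line and from stratified epithelium, and a list of other genes was taken for each. Of 30 meiosis and germ line genes, 16 were tested and 5 were higher and 1 lower by edgeR, beside 6.93% higher and 5.59% lower over all genes tested, with a median log2 fold change of 0.65. Rec114, which encodes a partner of MEI4, rose from 3.83 to 9.12 CPM (adjusted p of 0.0245 by edgeR) and Ddx4, a germ cell helicase, from 1.30 to 3.82 CPM (adjusted p of 0.0202 by edgeR). The number higher was 0 without WT replicate 4909 or Taz-KO 5300, 1 without WT 4686 or 5355, 2 without WT 5356 or Taz-KO 4910 and 3 without Taz-KO 4685. Of 30 genes of stratified epithelium, 13 were tested and 1 was higher, Krt10, from 2.71 to 5.76 CPM (adjusted p of 0.0351 by edgeR), with a median log2 fold change of 0.71. This count is near the 6.93% over all genes and is no result about the list. By DESeq2 3 epithelial genes were higher, and 7 were higher at an unadjusted edgeR p of 0.05.

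**Figure D5:**
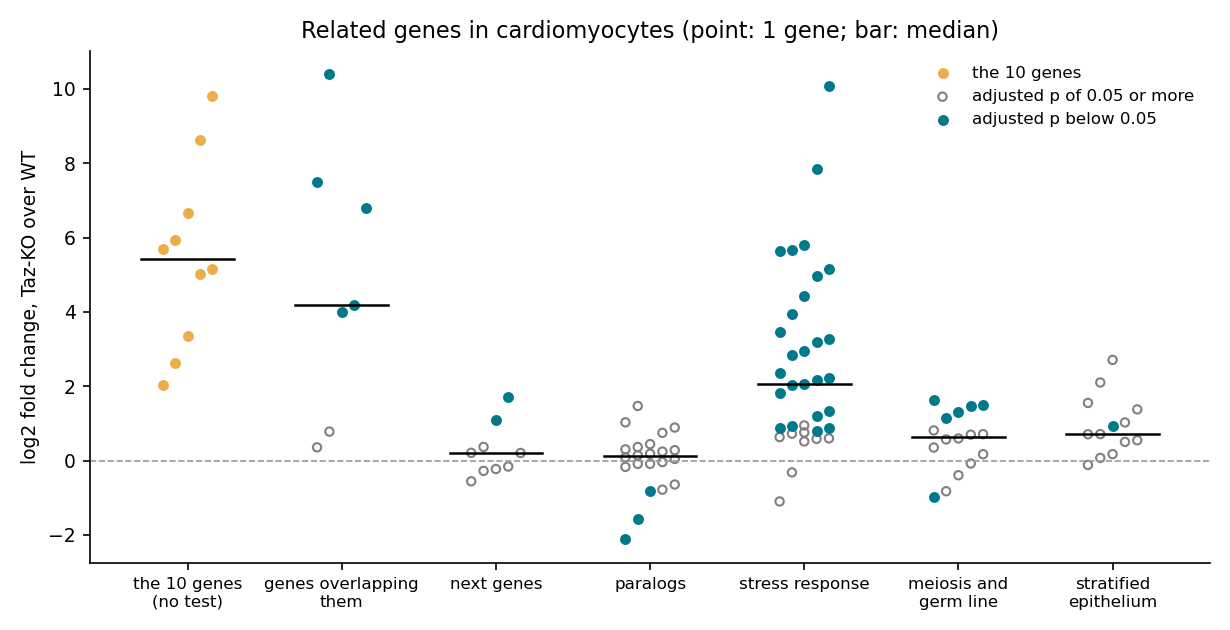
Log2 fold changes of Taz-KO over WT in cardiomyocytes for the 10 genes, the genes that overlap them, the next genes, their paralogs and 3 gene lists, with 1 point per gene tested and a bar at each median. The 10 genes have a colour of their own and no test, since they were chosen on these values, and in the other lists a filled point marks an edgeR adjusted p below 0.05. The medians are 4.19 for overlapping genes, 0.20 for next genes, 0.11 for paralogs and 2.07 for the stress response list.

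Of the 10 genes, 4 belong to the genes with a WT cardiomyocyte mean below 1 CPM. Of the 3315 tested genes with a WT mean below 1 CPM, 440 (13.3%) were higher and 46 (1.39%) lower at an adjusted p of 0.05 by edgeR, against 823 of 14899 (5.52%) higher among genes at 1 CPM or more. A gene below 1 CPM in WT passed the count filter in part through Taz-KO, so the shares of the classes are set in part by the filter.

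Tenm4 was also compared with all genes by its level over 79 sums per mouse and cell type, in 10 cell types. The genes most like it by Pearson correlation of log2(CPM + 1) were Gm15414, the antisense gene inside it (r = 0.856), Gm47283 (0.746), Vmn2r3 (0.739), Taf1d, a factor of RNA polymerase I transcription (0.727), and Yars, the tyrosyl-tRNA synthetase of the cytosol (0.711). These sums share libraries and the carried-over cardiomyocyte transcripts given above, so the correlations are a description.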

How the data were processed

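Per the paper's methods, reads were counted with Cell Ranger 6.0.1 against mm10, introns included, and the authors deposited the resulting raw UMI counts of the barcodes called as cells. Their later steps (ambient RNA correction, doublet removal, filters) are not in these counts. Here, a barcode needed 800 UMIs and 250 genes, mitochondrial genes were dropped, and nuclei with the highest doublet scores were removed per mouse (0.8% for each 1000 nuclei, 10% at the most). Nuclei were clustered (2000 variable genes, 15 principal components, Harmony by mouse, Leiden with igraph 0.11.9) with the 10 genes and the genes overlapping them, 20 in all, left out of the variable genes, and clusters were named by marker genes. Cell types are thus rebuilt names, and 44194 nuclei stayed unnamed.

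The counts of each cell type were added up for each mouse (at least 10 nuclei in at least 3 mice per genotype) and tested with edgeR 4.0.16 (TMM, filterByExpr, robust quasi-likelihood, Benjamini-Hochberg over all genes of that cell type, two-sided, R 4.3.3), with DESeq2 1.42.0 as an alternative. The 10 genes and the gene lists were chosen with earlier results of these data known. CPM are UMIs of a sum scaled to 1000000. P-values measure the spread between mice. In data simulated from the cardiomyocyte sums (18214 genes), edgeR recovered 87.5% of 4-fold and 0% of 2-fold changes, and DESeq2 94% and 48%, with 9 and 0 unchanged genes called by edgeR and 52 and 44 by DESeq2. Only 200 genes were changed in the simulation, while edgeR called 1263 higher and 1018 lower in the data. The adjusted threshold was thus stricter in the simulation, and genes near 2-fold were called in the data, as given above. The genes named are the 10 genes, the overlapping and next genes, paralogs and lists (at most 8 each, by fold), the 10 silent genes with the largest fold at an adjusted p under 0.001 without overlap, and the 5 genes most correlated with Tenm4.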

Additional observations from a re-analysis of the deposited data

Results flagged for a closer look

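In 80 groups of 4 mice examined for 1 value far from the other 3 (Dixon's test), 4 were found, and chance gives about 1 in 20. In WT cardiomyocytes, Vmn2r3 was highest in replicate 5355 at 0.601 CPM, with the next mouse at 0.181 CPM, and Tfcp2l1 was highest in replicate 4909 at 1.21 CPM, with the next at 0.703 CPM. Both values lie far below those of every Taz-KO mouse. In atrial-like cardiomyocytes of Taz-KO hearts, Vmn2r3 was lowest in replicate 4685 at 109 CPM, with the next at 164 CPM, and Btbd16 was highest in replicate 5300 at 87.0 CPM, with the next at 33.4 CPM.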

How the results depend on the processing

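No paired analysis was possible because each mouse carries its own number and no number is shared between WT and Taz-KO. No log2 fold change of the 10 genes in cardiomyocytes changed sign in any setting tried. These genes had been chosen for their higher Taz-KO levels in the same nuclei, so a kept sign follows largely from the choice. It is no test of their stability. No other log2 fold change followed changed sign where it was called in at least 1 of the settings compared. A change of sign where neither setting called the gene was not counted. With Ryr2 in place of Ttn, the fibroblast ratios of Mei4 and Trp63 moved to the other side of 1, as given above. The median log2 fold change of the 10 genes in cardiomyocytes was 5.41, 5.28 to 5.59 with 1 mouse left out and 4.71 over 9 genes in atrial-like nuclei. These medians are likewise a description of genes chosen by their fold. The settings with Ttn plus Ryr2 at 2% of UMIs and with ventricular-like or atrial-like nuclei alone were chosen after seeing the data.

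In atrial-like nuclei alone, which are fewest, 104 genes were higher and 78 lower (1263 and 1018 in all cardiomyocytes), with 20 silent genes higher and 0 lower, 1 next or overlapping gene higher (7 in all cardiomyocytes), 0 paralogs lower, 16 stress-response genes higher, 0 germ line genes higher and 0 lower, and 0 epithelial genes higher. Without a filter on low counts, 70 silent genes were lower (46 with it), 13 next or overlapping genes, 1 paralog and 0 epithelial genes were higher, and 68 of all 90 combinations of the 10 genes and other cell types were called, 46 of them among the 58 tested with the filter (43 with it). With cardiomyocytes taken as nuclei with Ttn and Ryr2 at 1% of UMIs, 88 silent genes were lower, and 1 paralog and 3 epithelial genes were higher. At 2% these were 71, 1 and 2. DESeq2 called 1 paralog and 3 epithelial genes higher and 1 stress-response gene lower. In ventricular-like nuclei 1 paralog and 2 epithelial genes were higher. Without Taz-KO 4685 and 5301, 1 paralog was higher and 0 germ line genes were lower. The Tenm4 share of Taz-KO nuclei was 66.7% at 2000 UMIs and 78.0% without thinning (51.2% at 1000), and the mean number of the genes per nucleus was 1.80 at 2000 UMIs (1.16 at 1000). The cause of these changes was not tested.

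With 1 mouse left out, 747 (without WT 4909) to 1429 genes were higher and 543 (without Taz-KO 5300) to 1024 lower, with 792 higher without Taz-KO 5300. Silent genes gave 266 (without Taz-KO 5300; 288 without WT 4909) to 484 higher and 21 (without Taz-KO 5300; 24 without Taz-KO 4910 and 29 without WT 4909) to 51 lower. Next and overlapping genes gave 7 to 10 higher, and paralogs 0 to 3 higher (3 without WT 5355) and 2 to 4 lower. Stress-response genes gave 22 to 26 higher and 0 to 1 lower (1 without WT 4686), germ line genes 0 to 4 higher and 0 to 1 lower, epithelial genes 0 to 2 higher (2 without WT 5355), and the 10 genes in other cell types 23 (without Taz-KO 4910 or 5300) to 55 higher (without Taz-KO 5301, where more combinations passed the filter). The smaller number of mice in these fits bears on the counts, and its part was not tested. A setting of nuclei without any Ttn UMI could not be run, since nearly no such nuclei exist.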

Other observations

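Among genes with a WT cardiomyocyte mean below 1 CPM other than the 10, those with the largest log2 fold change at an adjusted p under 0.001 (edgeR) and no overlap between genotypes were led by Gm50024, a gene with 3 UMIs in WT and 11.6 to 62.1 CPM in Taz-KO. Ostn, which encodes the secreted peptide osteocrin of muscle and bone, rose from 0.0586 to 37.4 CPM, with 9 UMIs in WT. Its Taz-KO levels were 56.3, 36.9, 30.3 and 26.2 CPM in replicates 4685, 4910, 5300 and 5301, all above the highest WT mouse at 0.143 CPM. Gm50024 and Ostn passed the count filter only through Taz-KO, so the adjusted p served to pick them and is no support for the change. Soat2, a cholesterol acyltransferase of liver and intestine, rose from 0.274 to 53.5 CPM, with 43.0 to 69.3 CPM in single Taz-KO mice and 44 UMIs in WT.

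Fgf21, a stress hormone mostly of the liver, had 3 UMIs in WT cardiomyocytes and 0.984 to 9.0 CPM in Taz-KO. Gm32312 had 1 UMI in WT and 2.34 to 5.30 CPM in Taz-KO. Genes with 0 UMIs in WT were 4933406M09Rik, at least 186-fold higher in Taz-KO, BC048644, at least 120-fold higher, and Miox, the myo-inositol oxygenase of kidney, at least 69.4-fold higher, taking 3 counts over the WT group as the floor. These genes passed the count filter only through Taz-KO, so that no p is given.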
